A study of Mus musculus with 36 samples.

Results

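Antisense long noncoding RNAs (lncRNAs) are transcribed from the strand opposite another gene, often across that gene's start or end. Some act on the gene they lie across, either in cis by transcription through it or by recruiting chromatin factors, as Kcnq1ot1 does in imprinting, and some, such as Tug1, act elsewhere in the nucleus. Most have no described function. The genes described here are those of the lncRNA table that the authors typed as antisense and whose FPKM (fragments scaled by transcript length and library size), summed over the transcripts of a gene, averaged at least 1 over the 12 long RNA libraries. Tsix was left out. There were 155 such genes among 456 antisense genes and 2133 lncRNA genes in all. These genes were chosen by their mean level over all libraries, so their levels are a description. The rule did not use the differences between genotypes and ages, but it was set with earlier results of these data known.

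The long RNA libraries came from brain of C57BL/6 mice in 4 groups of 3 libraries: wild type at 6 months, APP/PS1 at 6 months, wild type at 9 months and APP/PS1 at 9 months. APP/PS1 mice express the APP695swe and PS1-dE9 mutations and are a model of amyloid deposition. The labels do not name the promoter that drives the transgenes. The study asked how the whole transcriptome of the 2 genotypes compares at each age. The labels do not say whether the 3 libraries of a group are from different animals. The p-values therefore rest on the spread between libraries, part or all of which may be technical.

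App, the gene to which the transgenes add, lay at 433 to 453 FPKM in the 6 wild-type libraries and at 970 to 1029 FPKM in the 6 APP/PS1 libraries. The tissue label reads brain while the extraction protocol speaks of retinas. All 7 neuron markers of the list used had a mean of at least 1 FPKM, but 0 of 7 photoreceptor markers did, their summed level being 0.352 to 0.895 FPKM. The amount of choroid plexus differed between libraries, the sum of its 12 markers running from 57.5 to 480 FPKM. Their mean log2 level was -0.19, 2.34 and 0.26 in wild type at 6 months, 1.19, 2.43 and 2.37 in APP/PS1 at 6 months, 2.21, 2.37 and 2.45 in wild type at 9 months, and 1.49, 1.08 and 2.21 in APP/PS1 at 9 months. Pituitary and hypothalamic hormone genes differed more, the mean log2 level of 7 running from 0.41 to 3.96 and their sum reaching 315 FPKM. Fewer cells of a type and less RNA per cell cannot be told apart in such tissue libraries. The files give no counts, so the depth is unknown. The kit is named but whether it kept strand is not, so reads from an antisense gene and from the gene across from it cannot be told apart where they overlap.

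The promoters of 5 genes are shown first, of the 2 genes that passed the test for age (A830036E02Rik and Gm15723), of a gene lower in every APP/PS1 library (A830082K12Rik), of a gene that starts beside its partner (Gm11767, chosen after its position was seen), and of an antisense gene of the Dlx homeobox loci that exceeded its partner in level (Dlx6os1). Each runs from 250 bases before to 50 bases after the start, 5′ to 3′ on the gene's own strand, from RefSeq on GRCm38.p6. RefSeq lists 2 windows for Gm11767 and 2 for Dlx6os1. The one nearest the partner's start is printed for Gm11767, and the one of lower coordinate for Dlx6os1, whose partner has no listed start. Capitals mark the TATA box TATAAA, the GC box GGGCGG and the CCAAT box CCAAT on either strand, and neighbouring matches may share bases. A match describes the letters and does not show a bound site.
A830036E02Rik: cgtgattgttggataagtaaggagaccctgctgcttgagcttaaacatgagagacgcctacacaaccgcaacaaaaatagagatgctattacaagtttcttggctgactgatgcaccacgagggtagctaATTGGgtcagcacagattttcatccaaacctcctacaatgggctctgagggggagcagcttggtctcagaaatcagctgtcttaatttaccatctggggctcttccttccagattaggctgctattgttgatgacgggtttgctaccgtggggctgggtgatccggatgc
Gm15723: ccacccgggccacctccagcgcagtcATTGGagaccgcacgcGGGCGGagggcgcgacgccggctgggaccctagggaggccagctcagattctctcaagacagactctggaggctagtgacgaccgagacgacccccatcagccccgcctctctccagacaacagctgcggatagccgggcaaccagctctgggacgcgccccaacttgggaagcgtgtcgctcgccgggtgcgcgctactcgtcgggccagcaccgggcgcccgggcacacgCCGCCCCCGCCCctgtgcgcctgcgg
A830082K12Rik: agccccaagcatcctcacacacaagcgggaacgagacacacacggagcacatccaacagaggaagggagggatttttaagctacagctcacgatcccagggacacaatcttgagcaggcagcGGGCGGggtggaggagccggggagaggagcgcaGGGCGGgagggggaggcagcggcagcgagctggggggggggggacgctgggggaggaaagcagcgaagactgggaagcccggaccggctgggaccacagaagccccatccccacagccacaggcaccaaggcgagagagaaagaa
Gm11767: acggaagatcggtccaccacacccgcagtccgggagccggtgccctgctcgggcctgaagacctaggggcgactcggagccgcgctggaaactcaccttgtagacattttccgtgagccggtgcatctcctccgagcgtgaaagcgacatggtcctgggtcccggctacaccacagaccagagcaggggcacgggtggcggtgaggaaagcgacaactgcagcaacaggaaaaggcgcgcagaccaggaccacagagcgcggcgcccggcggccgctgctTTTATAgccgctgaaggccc
Dlx6os1: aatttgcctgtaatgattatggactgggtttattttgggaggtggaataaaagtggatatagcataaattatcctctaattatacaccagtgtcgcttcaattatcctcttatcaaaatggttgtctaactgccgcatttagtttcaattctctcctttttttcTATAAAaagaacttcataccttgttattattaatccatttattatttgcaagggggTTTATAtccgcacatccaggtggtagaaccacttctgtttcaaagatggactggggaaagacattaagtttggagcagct
The window of A830036E02Rik (chr11:99416993-99417292, plus strand) is 48.7% G or C and holds 1 CCAAT match and no GC box. The start of Krt12 is 5016 bases away. The window of Gm15723 (chr10:114801476-114801775, plus strand) is 71.7% G or C, with 3 GC boxes, 1 CCAAT match and 34 CG dinucleotides. Its start is 576 bases from that of Trhde, which encodes the enzyme that degrades thyrotropin-releasing hormone. The window of A830082K12Rik (chr13:78197767-78198066, plus strand) is 65% G or C with 2 GC boxes, and its start is 856 bases from that of Nr2f1, a nuclear receptor that patterns the cortex. The window of Gm11767 (chr11:119943045-119943344, minus strand) is 65.3% G or C with 28 CG dinucleotides and 1 TATA match, and its start lies 2 bases from that of Baiap2, an actin-binding scaffold of dendritic spines. The window of Dlx6os1 (chr6:6861634-6861933, minus strand) is 35.3% G or C, with 3 CG dinucleotides and 2 TATA matches.

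RefSeq gave promoter windows for 75 of the 155 genes, 100 windows in all. A GC box was found in 48% of these windows, against 16.3% of the windows of all lncRNA genes, 46.2% of those of protein-coding genes and 35.7% of all windows in the table. The TATA box was found in 7% of them and in 13.6% of all windows, and the CCAAT box in 35% and 37.4%. The median window held 61.8% G or C and 16 CG dinucleotides, compared with 48.3% and 4 for all lncRNA genes and 56.3% and 13 for protein-coding genes. The table's other lncRNA genes were not matched for level, so these shares describe the antisense genes and not a property of antisense transcription. Of the 48 genes whose start and partner start were both listed, 24 started within 1000 bases of each other, 11 of them in divergent orientation, and 12 within 300 bases. In those 24 genes the share of windows with a GC box was 59.5% and the median was 21 CG dinucleotides.

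Levels were low for most antisense genes and fairly even between libraries. The mean over the 12 libraries ran from 1.01 to 26.2 FPKM with a median of 1.70 FPKM. A mean of at least 10 FPKM was reached by 6 genes and of at least 5 FPKM by 16, while 94 lay below 2 FPKM. Together the antisense genes made up 428 to 464 FPKM in a library, or 1.79% to 2.31% of the summed lncRNA level, and the 10 highest held 31.6% of the antisense level. All 155 were above 0 in every library, and 151 of them stayed at or above 0.5 FPKM throughout. In 97 the highest library was under 2 times the lowest, and the median ratio was 1.83. Among other types with a mean of at least 1 FPKM, the median level was 2.26 FPKM for 191 lincRNA genes, 2.51 for 129 processed transcripts and 1.36 for 146 genes to be experimentally tested.

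**Figure D1:**
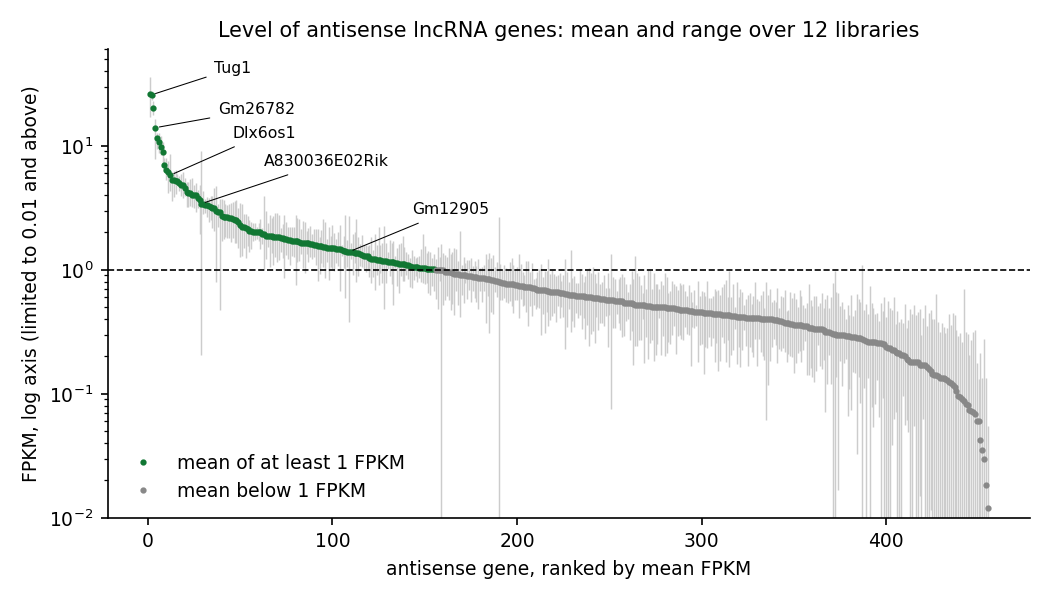
Mean FPKM of the antisense genes on a log axis, ranked, with a grey line from the lowest to the highest of 12 libraries (values under 0.01 drawn at 0.01). Green points are the 155 genes averaging 1 FPKM or more (dashed line), and the long grey lines below A830036E02Rik and Gm12905 show genes with a wide range between libraries.

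Tug1, a nuclear lncRNA typed here as antisense, was the steadiest of the abundant genes. Its 12 values lay between 23.3 and 27.4 FPKM, a ratio of 1.18. Its log2 difference between APP/PS1 and wild type over both ages was 0.02 (95% interval -0.09 to 0.14). The gene ranked above it, 4933431E20Rik, averaged 26.2 FPKM over 10 transcripts and lies across the start of Gstm5, a glutathione S-transferase. Its libraries ran from 17.0 to 35.6 FPKM. Some of its transcript estimates moved further than the gene. ENSMUST00000144591.7 was listed at 0 in 4 libraries and at 16.0 FPKM in another. B230334C09Rik lay between 17.7 and 23.1 FPKM. Gm26782 averaged 14.0 FPKM, with 7.79 FPKM in wild-type replicate 2 at 9 months and 12.4 to 16.5 FPKM in the other 11 libraries.

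The other genes among the 10 highest had narrow ranges. E130307A14Rik lay between 9.37 and 12.8 FPKM, Gm11175 between 8.73 and 12.8 and Gm14703 between 7.18 and 10.7. Rab10os, across from the vesicle-traffic GTPase gene Rab10, averaged 9.71 FPKM, Gm16586 7.04 FPKM and Chn1os1, named for the neuronal Rac regulator gene Chn1, 6.34 FPKM. At the threshold, the lowest genes that entered were Ttc39aos1 (1.01 FPKM), BC037039 (1.01) and 4933428P19Rik (1.01), and the highest left out were C230037L18Rik (0.998), A230005M16Rik (0.993) and Kcnmb4os2 (0.993). A list of antisense transcripts known from the literature contributed 4 genes, Dlx1as (6.13 FPKM), Dlx6os1 (5.78), Pcsk2os1 (2.07) and Kcnq1ot1 (1.87), while Zfhx2os (0.992), Emx2os (0.582), Airn (0.284) and Pax6os1 (0.135) lay below the threshold. Kcnq1ot1, which silences its imprinted neighbours in cis, ran from 1.37 to 2.60 FPKM. Its host Kcnq1 averaged 0.204 FPKM.

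A few genes had levels that moved strongly between libraries, within a group or between groups. In 6 of 155 the highest of all 12 libraries exceeded 4 times the lowest: A830036E02Rik (44.1 times), Gm13054 (7.88), Gm12905 (7.07), A930015D03Rik (5.89), Rab26os (4.72) and Gm15494 (4.66). Gm13054 lay at 0.84 FPKM in APP/PS1 replicate 2 at 6 months and at 0.47 FPKM in wild-type replicate 1 at 9 months, and between 3.15 and 3.71 FPKM in the other 10 libraries. Gm12905 lay between 0.38 and 0.49 FPKM in wild-type replicates 1 and 3 and APP/PS1 replicate 2 at 6 months and in wild-type replicate 1 at 9 months, and between 0.98 and 2.70 FPKM in the other 8. These low libraries belonged to both genotypes and both ages, so neither gene separated the groups. A930015D03Rik, which overlaps the nonclassical major histocompatibility genes H2-T24, H2-T23 and H2-T22, ran from 0.80 FPKM in wild-type replicate 3 at 6 months to 4.73 FPKM in wild-type replicate 1 at 9 months. Gm11583 reached 2.15 FPKM in wild-type replicate 3 at 6 months and 2.23 FPKM in APP/PS1 replicate 3 at 9 months, and lay at or below 1.27 FPKM elsewhere.

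Antisense genes were compared between APP/PS1 and wild type at each age with limma on log2(FPKM + 0.25), adjusted over the 1367 lncRNA genes that averaged 0.5 FPKM or more. At 6 months 0 of 155 antisense genes passed an adjusted p of 0.05, and 0.0% of all lncRNA genes did. An unadjusted p under 0.05 was found for 18 antisense genes (11.6%), 9 higher and 9 lower in APP/PS1, against 7.32% of all lncRNA genes. The groups did not overlap for 27 antisense genes (17.4%), 9 higher and 18 lower, against 11.9% of all lncRNA genes. The median difference of the antisense genes was -0.04 on the log2 scale, and 0.04 when libraries were scaled to a common median, beside -0.07 for all lncRNA genes. The middle 50% ran from -0.18 to 0.11. For the typical gene the 95% interval reached 0.37 log2 to either side, and 68 of 155 genes had an interval that lay within 0.5 log2 of 0.

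Gm14291 had the smallest p of the antisense genes at 6 months. Its levels were 1.82, 1.68 and 1.42 FPKM in wild type and 0.84, 0.91 and 0.78 FPKM in APP/PS1. All 3 APP/PS1 libraries lay below all 3 wild-type ones, with a log2 difference of -0.79 (95% interval -1.15 to -0.43, limma adjusted p = 0.12). At 9 months it lay at 1.18, 0.92 and 1.29 FPKM in wild type and 1.05, 1.17 and 1.60 FPKM in APP/PS1, where the groups overlapped. Its difference between the ages, 0.92 on the log2 scale, was the one of smallest p in that comparison and did not pass (limma adjusted p = 0.852).

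At 9 months 0 of 155 antisense genes passed, beside 0.0% of all lncRNA genes. An unadjusted p under 0.05 was found for 8 antisense genes (5.16%), 5 higher and 3 lower, against 4.17% of all lncRNA genes. The groups did not overlap for 19 (12.3%), 8 higher and 11 lower, against 10% of all lncRNA genes. The median difference was 0.03, and 79 genes had an interval within 0.5 log2 of 0. Gm42738 lay at 4.41, 4.32 and 3.82 FPKM in wild type and at 2.96, 2.98 and 1.93 FPKM in APP/PS1 (log2 difference -0.65, limma adjusted p = 0.484). Its groups were apart at 9 months and overlapped at 6 months, when wild type lay at 4.24, 3.77 and 3.11 FPKM and APP/PS1 at 3.60, 4.78 and 3.63 FPKM. Gm13205 lies across from Casz1, a zinc-finger transcription factor gene averaging 0.489 FPKM here. At 9 months it measured 4.55, 3.25 and 3.65 FPKM in wild type and 5.35, 4.91 and 4.98 FPKM in APP/PS1 (log2 difference 0.40, limma adjusted p = 0.751). All 3 APP/PS1 libraries were above the wild-type ones.

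Over both ages 0 of 155 antisense genes passed, beside 0.0% of all lncRNA genes, and 120 had an interval within 0.5 log2 of 0. An unadjusted p under 0.05 was found for 15 (9.68%), against 6.22% of all lncRNA genes. In 2 genes all 6 APP/PS1 libraries lay on the same side of all 6 wild-type libraries, as did 0.219% of all lncRNA genes. The first was A830082K12Rik, the Nr2f1 antisense gene whose GC-rich promoter is printed above. Wild type gave 5.84, 5.84 and 5.53 FPKM at 6 months and 6.34, 5.58 and 6.06 at 9 months. APP/PS1 gave 4.88, 4.05 and 4.47 FPKM at 6 months and 4.70, 4.65 and 4.98 at 9 months. The highest APP/PS1 library was below the lowest wild-type library at both ages, with a log2 difference of -0.33 (SE 0.07, limma adjusted p = 0.121). Some of its transcript estimates moved further than the gene. ENSMUST00000123998.1 was listed at 0 in wild type at 6 months, at 2.81 to 3.93 FPKM in wild type at 9 months and at 0 to 3.32 FPKM in APP/PS1. ENSMUST00000131564.7 ran from 0.144 to 4.68 FPKM. Nr2f1 itself lay at 17.5 to 22.8 FPKM in wild type and 16.7 to 19.6 FPKM in APP/PS1, with a log2 difference of -0.10 (limma adjusted p = 0.556 over the mRNA genes). Its groups overlapped at 6 months (log2 difference 0.02). At 9 months they did not, with 22.8, 19.7 and 21.4 FPKM in wild type and 18.5, 19.6 and 16.7 FPKM in APP/PS1, the same direction as A830082K12Rik (log2 difference -0.22, limma adjusted p = 0.369).

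The other was Gm17139, higher in APP/PS1. Wild type gave 1.31, 1.25 and 1.07 FPKM at 6 months and 1.06, 1.36 and 1.07 at 9 months. APP/PS1 gave 2.08, 2.55 and 1.80 FPKM at 6 months and 1.69, 1.68 and 1.44 at 9 months. The lowest APP/PS1 library, 1.44 FPKM, was just above the highest wild-type library, 1.36 FPKM. The log2 difference was 0.55 (SE 0.11) and did not pass (limma adjusted p = 0.111). It passed when APP/PS1 replicate 3 at 6 months was left out (0.60, limma adjusted p = 0.0394). Gm15494 lay at 1.25 to 2.24 FPKM in wild type and 0.48 to 1.31 FPKM in APP/PS1, with APP/PS1 replicate 3 at 9 months inside the wild-type range (log2 difference -0.75, limma adjusted p = 0.148).

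**Figure D2:**
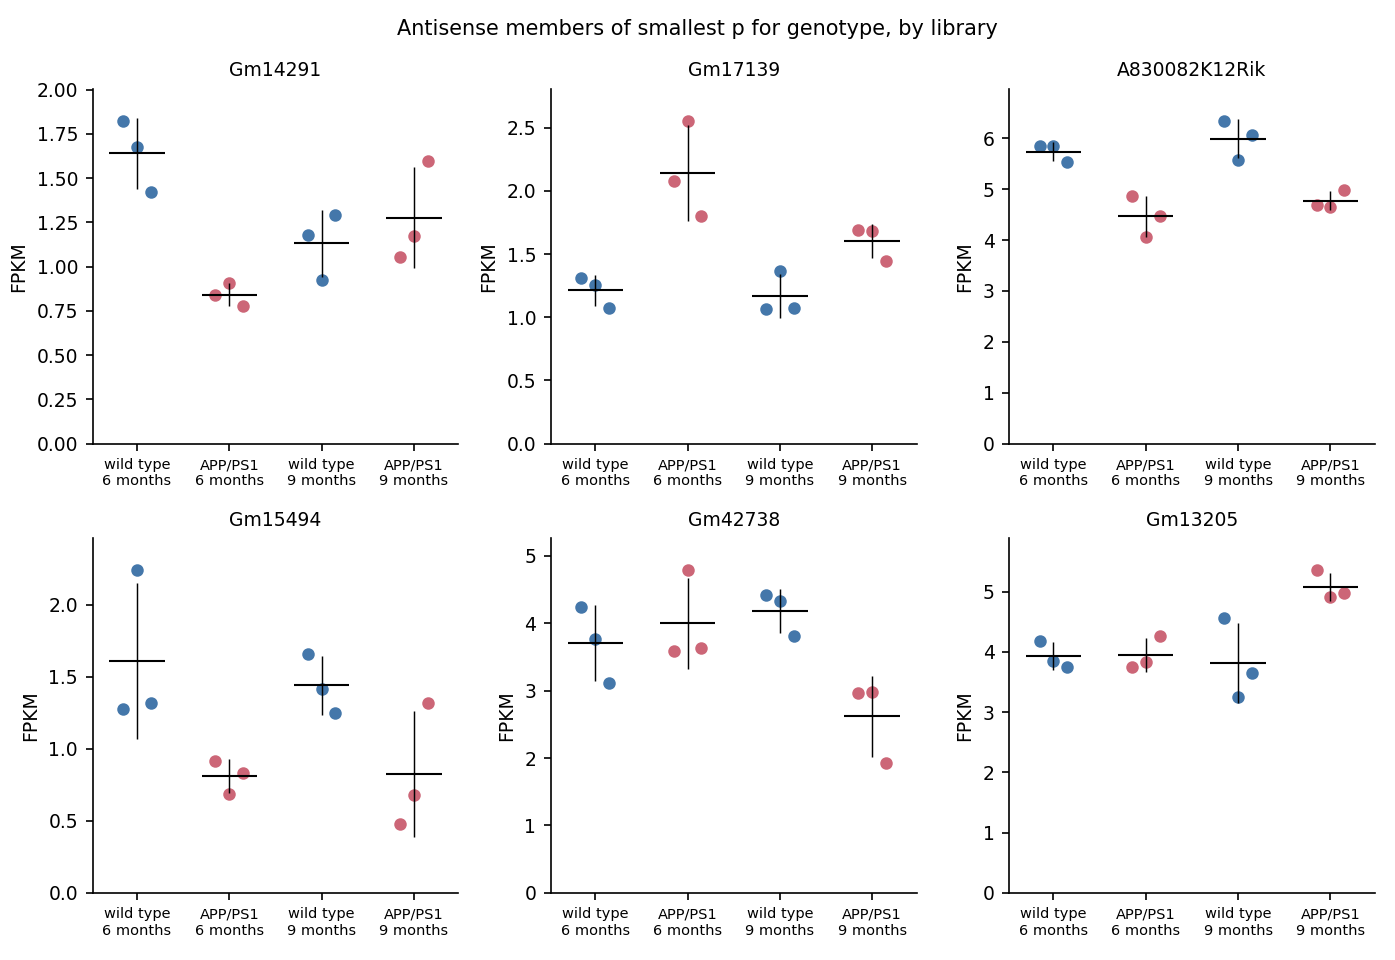
FPKM of 6 antisense genes by library (points, blue wild type and red APP/PS1), with the mean (bar) and SD (line, n = 3) of each group. The genotypes stand apart at both ages for A830082K12Rik and Gm17139, and at a single age for Gm14291, Gm42738 and Gm13205.

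The genotype differences at the 2 ages had the same sign in 68 antisense genes. Of 155, 37 were higher in APP/PS1 at both ages, 31 were lower at both and 87 differed in sign. The test of the difference between the ages passed for 0 antisense genes, beside 0.0% of all lncRNA genes. In it 13 antisense genes (8.39%) had an unadjusted p under 0.05, against 5.56% of all lncRNA genes. After Gm14291, the smallest p belonged to Gm42738 (-0.75 on the log2 scale) and Zbtb11os1 (0.56), both with a limma adjusted p of 0.852. With choroid plexus and striatal marker levels in the model the difference of Zbtb11os1 turned to -0.0161. A log2 difference of over 0.5 in size was found for 12 genes at 6 months and 7 at 9 months.

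**Figure D3:**
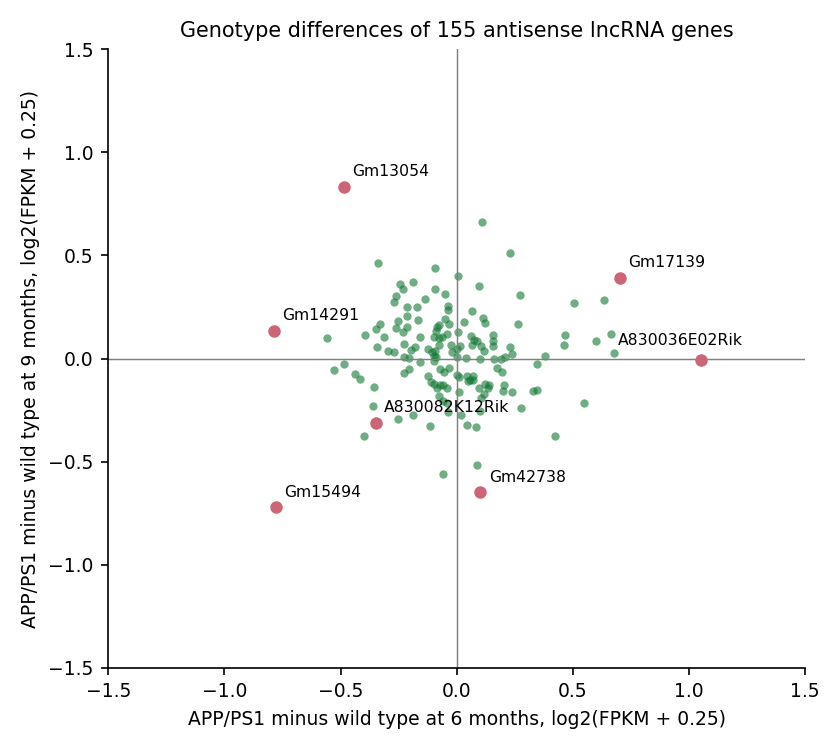
Log2 difference between APP/PS1 and wild type at 6 months (horizontal) and at 9 months (vertical) for 155 antisense genes, each point 1 gene and 3 libraries a group. Most points lie within 0.5 of 0 on both axes, and A830036E02Rik lies at 1.05 at 6 months and near 0 at 9 months.

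Age gave the only calls among the antisense genes. Between 9 and 6 months over both genotypes 2 of 155 passed, A830036E02Rik, which rose, and Gm15723, which fell, beside 0.366% of all lncRNA genes, or 5 of 1367. An unadjusted p under 0.05 was found for 19 antisense genes (12.3%), 8 higher and 11 lower at 9 months, against 10.1% of all lncRNA genes. The groups did not overlap for 1 antisense gene, Gm15723 (0.645%), against 0.805% of all lncRNA genes. The median difference was -0.01, and 0.06 with libraries scaled to a common median, beside -0.07 for all lncRNA genes.

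A830036E02Rik lies across Krt12, a keratin gene known from the corneal epithelium. It measured 0.31, 0.20 and 0.30 FPKM in wild type at 6 months and 0.27, 0.23 and 4.72 FPKM in APP/PS1 at 6 months. At 9 months it measured 8.92, 3.93 and 4.61 FPKM in wild type and 9.01, 4.38 and 4.04 FPKM in APP/PS1. In all, 5 libraries lay between 0.20 and 0.31 FPKM and the other 7 at or above 3.93 FPKM, with none between. APP/PS1 replicate 3 at 6 months stood with the 9-month libraries, and replicate 1 of each genotype at 9 months stood above the rest. The levels of this gene thus followed the age label only in part, which limits what its age call says about age. The log2 difference by age was 2.93 (SE 0.47, limma adjusted p = 0.0196), and 3.48 without APP/PS1 replicate 3 at 6 months (limma adjusted p = 3.8e-06). The call was lost when any of 5 other libraries was left out (adjusted p up to 0.0589) and when choroid plexus and striatal marker levels entered the model (2.32, limma adjusted p = 0.362). Of the 5 libraries with little A830036E02Rik, 2 had the lowest choroid plexus marker levels (-0.19 and 0.26) and 2 were among those with high levels (2.34 and 2.43).

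Both transcripts of A830036E02Rik had this pattern, holding 47.3% and 52.7% of its level. Krt12 was low where its antisense gene was low. Krt12 lay between 0.359 and 0.914 FPKM in the 5 libraries where A830036E02Rik was under 1 FPKM, and between 1.41 and 3.48 FPKM in the other 7. The 2 libraries with the most A830036E02Rik also had the most Krt12, 3.02 and 3.48 FPKM. Within the 7 libraries Pearson's r was 0.94 (exact permutation p = 0.0262) and Spearman's rho 0.68 (exact permutation p = 0.11), and r was 0.34 without the 2 libraries farthest from the Krt12 median, so the relation there rests on those 2. For Krt12 the log2 difference by age was 1.28 and did not pass (limma adjusted p = 0.156 over the mRNA genes). Where the strand of reads is unknown, the 5351 overlapping bases may count for both genes.

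Some other genes had a similar pattern over the libraries. In all, 14959 genes were ranked by the size of the correlation of log2 levels over the 12 libraries, whatever its sign. The nearest to A830036E02Rik were Copz2, Krt12, Peak1, Mrpl27 and Phb, all with a positive r. Among the 20 nearest, Gfra2, Akt2, Pcdhgb4, Crybb1 and Ust ran the opposite way (r of -0.92 to -0.86), and Gm10116 had no listed chromosome. Copz2, a coat protein of vesicles, lay between 0.364 and 0.582 FPKM in the 5 libraries with little A830036E02Rik and between 1.21 and 2.71 FPKM in the other 7. Of the 20 nearest genes 4 were on chromosome 11 (Copz2, Krt12, Mrpl27 and Phb), where A830036E02Rik also lies and which holds 8.02% of the 13260 genes with a listed chromosome. Krt12 is counted among the 4 although it may share reads with A830036E02Rik. Another antisense gene, Sp3os, across from the transcription factor gene Sp3, was also among these 20. It lay between 3.16 and 3.76 FPKM in the 5 libraries with little A830036E02Rik and between 3.81 and 4.87 FPKM in the other 7. Copz2 and Sp3os were picked by their correlation over these same libraries, so their ranges follow from that choice and are no separate support.

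Gm15723 fell with age. At 6 months it measured 1.61, 1.67 and 2.29 FPKM in wild type and 1.82, 1.83 and 1.69 FPKM in APP/PS1. At 9 months it measured 1.33, 1.41 and 1.15 FPKM in wild type and 1.05, 1.01 and 1.07 FPKM in APP/PS1. All 6 libraries of 9 months lay below all 6 of 6 months, with a log2 difference of -0.54 (SE 0.10, limma adjusted p = 0.0326). The call was kept in 4 of 17 alternative analyses and in 2 of the 12 that left out a library, with adjusted p-values of 0.0406 to 0.362 and log2 differences of -0.58 to -0.38. Trhde, across from it, lay between 7.17 and 8.42 FPKM in every library, with a log2 difference by age of -0.02 (limma adjusted p = 0.875 over the mRNA genes).

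The Dlx antisense genes were also lower at 9 months without passing the test. Dlx1as and Dlx6os1 lie across homeobox genes of forebrain interneurons and striatal neurons. Dlx1as measured 7.54, 7.19 and 6.64 FPKM in wild type and 7.10, 7.46 and 5.84 FPKM in APP/PS1 at 6 months. At 9 months it measured 6.07, 4.78 and 5.71 FPKM in wild type and 4.20, 6.39 and 4.66 FPKM in APP/PS1 (log2 difference -0.39, limma adjusted p = 0.219). Dlx6os1 averaged 6.72 ± 1.56 (SD, n = 3) and 6.79 ± 1.66 FPKM in wild type and APP/PS1 at 6 months, and 5.10 ± 0.649 and 4.51 ± 0.253 FPKM at 9 months (log2 difference -0.45, limma adjusted p = 0.223). The ages overlapped for both genes. Their partners were lower at 9 months as well, without passing. Dlx1 averaged 5.61 and 5.91 FPKM in wild type and APP/PS1 at 6 months and 3.46 and 4.10 FPKM at 9 months (log2 difference -0.56, limma adjusted p = 0.184 over the mRNA genes). For Dlx6 the log2 difference was -0.17 (limma adjusted p = 0.489). Striatal markers, by their mean log2 level, lay at 5.33 to 5.50 in wild type at 6 months and at 5.01 to 5.30 in the other 9 libraries. A model with choroid plexus and striatal marker levels was also fitted to the Dlx genes. Its values for them are not given here, so the part of the markers in these differences is left undescribed. Gm40578 measured 2.40 to 3.36 FPKM at 6 months and 1.79 to 2.54 FPKM at 9 months (log2 difference -0.41, limma adjusted p = 0.166).

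**Figure D4:**
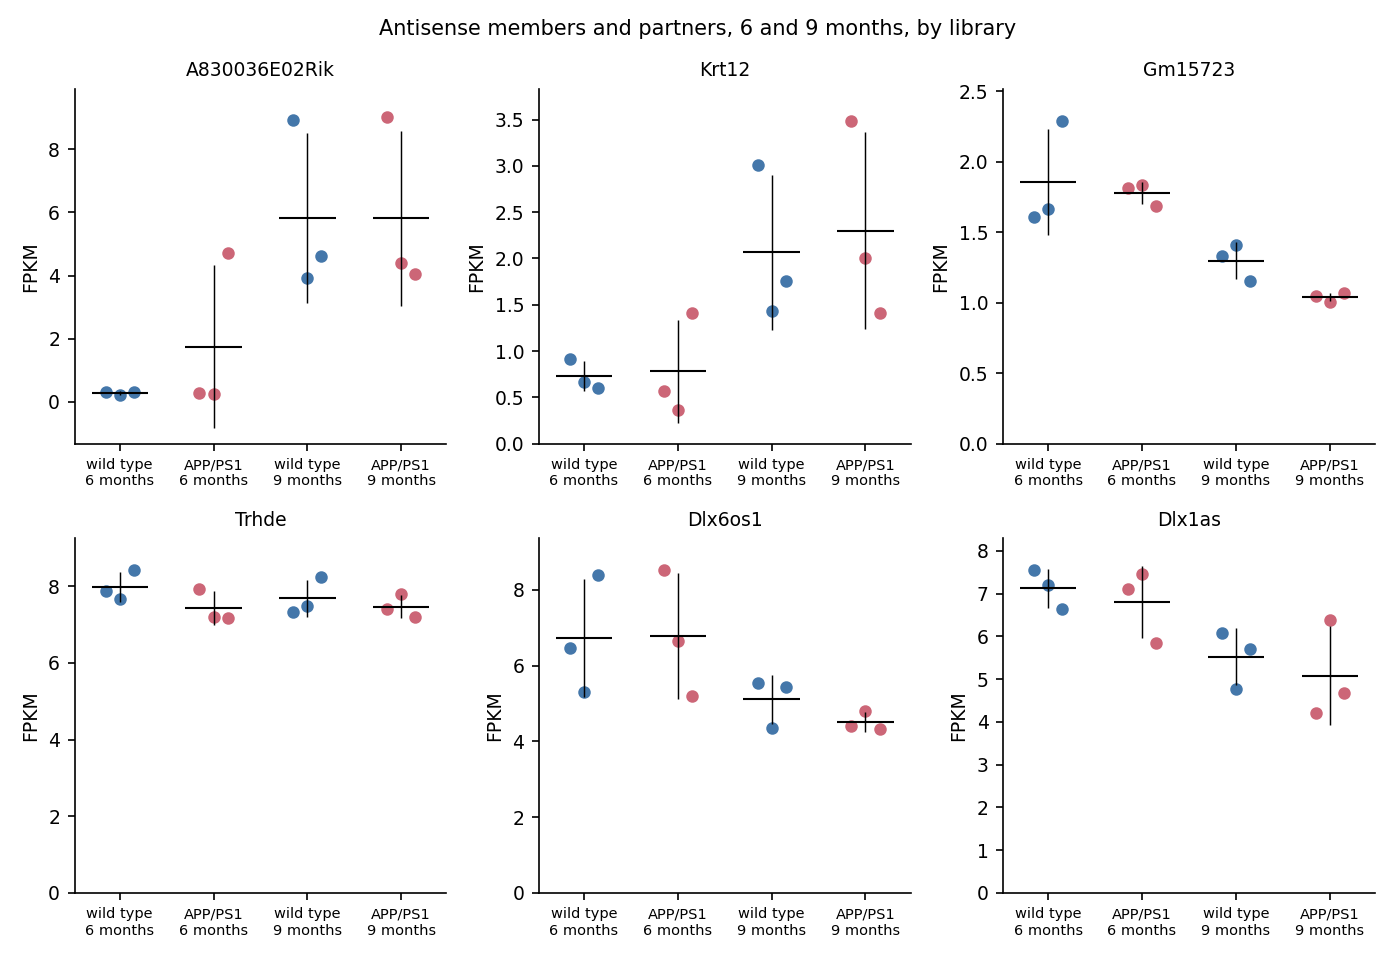
FPKM by library of A830036E02Rik and its partner Krt12, Gm15723 and its partner Trhde, Dlx6os1 and Dlx1as (points, blue wild type and red APP/PS1), with the mean (bar) and SD (line, n = 3). A830036E02Rik lies between 0.20 and 0.31 FPKM in 5 libraries of 6 months and at 4.72 FPKM in the remaining one, and Gm15723 falls while Trhde stays between 7.17 and 8.42 FPKM.

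A gene on the opposite strand that averaged 0.5 FPKM or more was assigned to 55 of the 155 antisense genes, 51 by overlap of their RefSeq positions and 4 by name alone. Among several such genes the one of largest overlap was taken, after the level filter. Thus 4933431E20Rik was paired with Gstm5 (360 bases) and not Eps8l3 (4051 bases, 0.373 FPKM). Likewise 4732471J01Rik was paired with Lipe (18960 bases) and not Ceacam2 (23963 bases, 0.124 FPKM). Tomm6os was paired with Prickle4 (2619 bases, 2.45 FPKM) and not Tomm6 (777 bases, 60.4 FPKM). Where a strand was not listed, the opposite strand was taken from the antisense gene's name. In these 55 pairs the antisense gene had a median of 18.3% of its partner's FPKM, lay under 10% of it in 22 pairs and above it in 6. Gm13629 averaged 2.67 FPKM against 0.598 FPKM for Scn9a, a sodium channel gene of sensory neurons. By the mean over the 12 libraries A830036E02Rik stood at 232% of Krt12, Dlx6os1 at 147% of Dlx6, Dlx1as at 129% of Dlx1, A030001D20Rik at 128% of Rasip1 and Panct2 at 110% of Slco4c1. In the 5 libraries where A830036E02Rik was under 1 FPKM it lay below Krt12, at most 0.310 FPKM against at least 0.359 FPKM. That level filter leaves out pairs with a weakly measured partner. For 6 further antisense genes the opposite-strand gene lay below it. All 6 exceeded that gene, which the thresholds of 1 FPKM for antisense genes and 0.5 FPKM for partners fixed in advance. Among them Gm13205 averaged 4.19 FPKM against 0.489 for Casz1, Gm16008 2.29 against 0.0323 for Tnfrsf18 and Brip1os 2.01 against 0.0313 for Brip1. The others were Gm16894 (Il1r2), AW495222 (Dmgdh) and Prox2os (Prox2). Brip1 and Prox2 were assigned by name alone. By RefSeq positions Brip1os overlaps Ints2 (46929 bases, 5.18 FPKM) and Med13 (37411 bases, 18.4 FPKM), both above it in level, with the strand not given. With these 6, which count as above by construction, the antisense gene was above its partner in 12 of 61 pairs. The median was then 19.5%. Gm13629 and Panct2 were above by construction as well. Their partners Scn9a (0.598 FPKM) and Slco4c1 (0.950 FPKM) averaged under the 1 FPKM that every antisense gene had to reach. With limma 0 of the 55 partners passed the test in any of the 5 comparisons, beside 0.0441% of all mRNA genes for genotype at 6 months, 0.0956% at 9 months, 0.118% over both ages, 0.0147% by age and 0.00736% for the difference between the ages. An unadjusted p under 0.05 was found for 9 partners at 6 months (16.4%, against 11.7% of all mRNA genes), 8 of them lower in APP/PS1. It was found for 2 partners at 9 months (3.64%, against 9.73%) and for 5 over both ages (9.09%, against 10.4%). By age it was found for 6 (10.9%, against 12.2%), and for the difference between the ages for 7 (12.7%, against 11.3%).

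**Figure D5:**
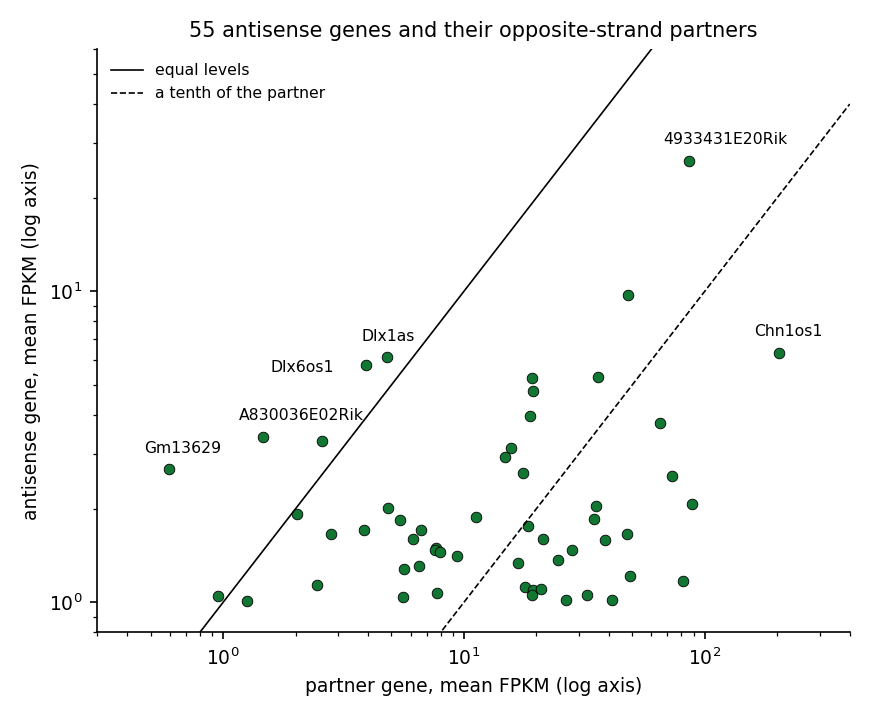
Mean FPKM over 12 libraries of 55 antisense genes (vertical) against the gene on the opposite strand (horizontal), both on log axes, with lines for equal levels and for 10% of the partner. In all, 6 points lie above the line of equal levels, among them Gm13629, A830036E02Rik, Dlx6os1 and Dlx1as.

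Correlations between antisense genes and their partners were mostly small. Over the 12 libraries the correlation of their log2 levels was positive in 37 pairs and negative in 18. The median r was 0.20, and 0.09 for deviations from the group means. Unrelated pairs were not compared, and the counting error of low genes is unknown. A small r thus does not show that a pair varied independently. A permutation p under 0.05 was found for 7 pairs, and after adjustment over the 55 for 1, the Krt12 pair, whose libraries fall into separate sets as given above. Dlx6os1 and Dlx6 had r = 0.77 (permutation p = 0.00385, adjusted 0.106, n = 12), Spearman's rho 0.76 (permutation p = 0.00645), and r = 0.76 without the 2 libraries farthest from the Dlx6 median. Dlx1as and Dlx1 had r = 0.58 (permutation p = 0.0487, adjusted 0.382), and r = 0.13 for deviations from the group means, beside 0.79 for Dlx6os1 and Dlx6. The lowest values were those of Gm9962 with Gabra5, a GABA-A receptor subunit gene (r = -0.68, permutation p = 0.0131), and of Tmem147os with Tmem147 (r = -0.64, permutation p = 0.0269), and neither passed after adjustment.

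Pcsk2os1 lies across the start of Pcsk2, a prohormone convertase of neurons. At 6 months it measured 2.28, 2.03 and 2.23 FPKM in wild type and 1.39, 1.68 and 2.03 FPKM in APP/PS1. At 9 months it measured 1.90, 2.08 and 2.17 FPKM in wild type and 2.52, 2.23 and 2.25 FPKM in APP/PS1. APP/PS1 was the lower group at 6 months and the higher group at 9 months. Pcsk2 lay at 92.8, 90.4 and 86.2 FPKM in wild type and 82.9, 83.6 and 84.4 FPKM in APP/PS1 at 6 months, and at 91.2, 86.0 and 87.1 FPKM in wild type and 90.1, 91.6 and 92.5 FPKM in APP/PS1 at 9 months. Its APP/PS1 libraries were below all wild-type libraries at 6 months and overlapped them at 9 months. The pair's correlation was 0.66 over the 12 libraries (permutation p = 0.0133, rho 0.66 with permutation p = 0.0237) and -0.08 for the deviations from the group means, so it rested on differences between the groups.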

How the data were processed

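Total RNA of 12 long RNA libraries (3 in each group) went into an Illumina TruSeq RNA kit, per the labels' protocols. The authors deposited FPKM per transcript for lncRNA and mRNA, with no counts, so the depth and the counting error are unknown. Bowtie 0.12.2 and the build mm8 are named in the submitters' processing notes with no role. No source used here names the counting tool or the annotation. Groups and library numbers come from the titles. FPKM were summed per gene (2133 lncRNA genes from 2462 transcripts, 22154 mRNA genes). Genes averaging 0.5 FPKM or more (1367 and 13593) were tested as log2(FPKM + 0.25) with limma 3.58.1 (trend) in R 4.3.3, with 4 group means and Benjamini-Hochberg adjustment over each table, two-sided, with an adjusted p under 0.05 called. The pseudocount shrinks the log2 differences of low genes. Intervals are 95%.

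Names matched for 152 of the 155 genes. Partners were taken from RefSeq positions (92 genes matched) or, for 4 of the 55, from the gene's name alone. They were used for the level ratios, the correlations and the counts of called partners. Coordinates are printed for RefSeq's own promoters on GRCm38.p6, since the build of the FPKM tables is not given. RefSeq lists 4 of the 155 as protein-coding. Correlations used 100000 permutations, whose smallest p is 1e-05, and enumeration within 7 libraries. Permutation p-values are two-sided. The fit was tried on simulated data for the genotype comparison at 9 months, with 1320 genes. It called 28.1% of 64 genes changed 1.5-fold, 65.1% of 63 changed 2-fold, 100% of 60 changed 4-fold and 8 unchanged genes. So many changed genes loosen the adjustment, so these shares may overstate what is called where few genes differ. No 2 libraries shared more than 2 equal values.

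Named genes are those called, the 3 of smallest p in each comparison, the 10 highest, those beside the threshold, those highest relative to their partner, most or least correlated with it or most variable within groups, and a list of known antisense transcripts. The members and lists were chosen with earlier results of these data known. Alternatives were another pseudocount, no filter, median scaling, each age alone, choroid plexus and striatal covariates, a replicate block and leaving out each library.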

Additional observations from a re-analysis of the deposited data

Results flagged for a closer look

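Pcsk2os1 lay below all wild-type libraries in every APP/PS1 library at 6 months, the nearest values both rounding to 2.03 FPKM, and above all of them at 9 months, so its genotype difference pointed in opposite directions at the ages. The change between the ages was 0.498 on the log2 scale (95% interval 0.08 to 0.91). The limma test of this difference did not pass over the 1367 lncRNA genes (adjusted p = 0.852).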

How the results depend on the processing

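Scaling libraries to a common median moved the median log2 difference of the antisense genes from -0.0384 to 0.0378 at 6 months, from 0.00322 to 0.0462 over both ages, from -0.0142 to 0.0578 by age and from 0.0359 to -0.0305 for the difference between the ages; the cause was not tested. By age, 2 antisense genes (5 lncRNA genes) were called. Median scaling gave 1 (2), choroid plexus and striatal covariates 0 (0), and the replicate block 1 (2), and the cause was not tested. Leaving out each library in turn gave 0 to 2 antisense and 1 to 6 lncRNA calls by age, 0 to 1 antisense and 0 to 5 lncRNA calls for genotype over both ages, 0 to 3 lncRNA calls at 6 months, 0 to 1 at 9 months and 0 to 1 for the difference between the ages. With 1 library fewer a group kept 2, which share the estimate of spread with the other groups. With the covariates the difference of Zbtb11os1 between the ages turned to -0.0161. For deviations from the group means the correlation of Pcsk2os1 with Pcsk2 turned to -0.0812. A mean of at least 0.5 FPKM would have given 277 antisense genes and of at least 2 FPKM 61. Library numbers gave no sign of pairing wild type with APP/PS1 within an age. Deviations of same-numbered libraries correlated at -0.12 to 0.125 and those of other-numbered libraries at -0.171 to 0.222. Numbers were not compared between the ages. FPKM without counts leave the precision of low genes unknown.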
